A study of Mus musculus with 4 samples.

Results

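miR-26a, miR-26b, miR-101a and miR-101b are the mouse members of a pair of microRNA (miRNA) families that are known for repressing the transcript of Ezh2. They were chosen by name, as the probes mmu-miR-26a, mmu-miR-26b, mmu-miR-101a and mmu-miR-101b of a nanoString miRNA panel, and are 4 of its 566 mouse miRNA probes. No other probe of the panel carries a miR-26 or miR-101 name. The 4 were picked with their difference between the study's groups already known, so that difference is described below, and no p-value for a member is given as evidence of it.

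The oncogenic group held 2 samples of epidermal cells from adult mice of genotype R26stoprtTA/+ Col-tetO-YAPS127A/+ K14-Cre, and the normal group held 2 samples from R26stoprtTA/+ Col-tetO-YAPS127A/+ mice, which carry the same transgenes but no Cre. Mice of both groups drank doxycycline at 1 mg/ml for 8 days. Cre under the K14 promoter, active in basal keratinocytes, frees the doxycycline-dependent activator, which then drives YAP with the S127A change, a form of this transcriptional coactivator that escapes restraint by the Hippo pathway. The sample titles name the oncogenic samples tumours, whereas the condition label and the protocol describe cells scraped from trypsin-treated back skin. The protocol gives 6 control animals and does not tie samples to animals, so the spread between replicates may be technical. The cells were not sorted. In such bulk RNA, fewer cells of a type and less of a miRNA per cell cannot be told apart.

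A miRNA guides an Argonaute protein to transcripts through its seed, bases 2 to 8 from the 5′ end, and lowers their stability and translation. Ezh2 is the catalytic subunit of a Polycomb repressive complex, which methylates histone H3 and silences genes, and in epidermal progenitors Polycomb holds back differentiation genes. In human cancers, loss of miR-101 has been reported together with high EZH2, and miR-26a is repressed by Myc. The Ezh2 transcript is not analysed here.

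The mature sequences, from RefSeq on the mouse build GRCm38.p6, are shown because the panel reads each paralog with a probe of its own, although they are nearly identical. All 4 members matched an entry. The panel does not name the arm of the hairpin, and the arm known as the main product was taken, 5p for miR-26 and 3p for miR-101. Capitals mark the seed.
miR-26a: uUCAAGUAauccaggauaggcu
miR-26b: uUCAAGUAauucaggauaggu
miR-101a: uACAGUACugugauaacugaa
miR-101b: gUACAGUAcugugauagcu
miR-26a and miR-26b share the seed and are identical at 19 of 21 aligned bases, with the differences C11U and C21U (miR-26a base first, counted from its 5′ end). miR-101b starts 1 base further 5′ than miR-101a in these entries, so the bases counted as its seed are shifted by 1 (UACAGUA against ACAGUAC in miR-101a). Over the 18 aligned bases these paralogs differ only by A16G, counted from the 5′ end of miR-101a.

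The hairpin precursors, from the same table, show that miR-26a can come from either of 2 loci and that the paralogs lie at separate loci. Capitals mark the mature miRNA.
Mir26a-1: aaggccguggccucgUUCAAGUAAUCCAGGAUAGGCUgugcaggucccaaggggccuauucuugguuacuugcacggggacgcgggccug
Mir26a-2: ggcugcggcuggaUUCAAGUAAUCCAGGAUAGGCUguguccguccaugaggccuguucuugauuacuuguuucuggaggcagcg
Mir26b: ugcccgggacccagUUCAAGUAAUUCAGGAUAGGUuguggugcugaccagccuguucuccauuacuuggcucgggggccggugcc
Mir101a: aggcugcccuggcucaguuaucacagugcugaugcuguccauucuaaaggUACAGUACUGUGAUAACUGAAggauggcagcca
Mir101b: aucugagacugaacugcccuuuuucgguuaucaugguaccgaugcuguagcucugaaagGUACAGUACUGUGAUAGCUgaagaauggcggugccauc
Mir26a-1 lies at chr9:119031796-119031885 (plus strand) within the span of Ctdspl, Mir26a-2 at chr10:126995530-126995613 (plus strand) within Ctdsp2, and Mir26b at chr1:74394310-74394394 (plus strand) within Ctdsp1. These host genes encode small phosphatases that act on RNA polymerase II. Mir101a lies at chr4:101346945-101347027 (minus strand) within the noncoding gene E130102H24Rik, and Mir101b at chr19:29135279-29135375 (plus strand) within Rcl1. In the Mir101a hairpin the base just before the mature miRNA is a G, the base with which the miR-101b entry begins. Because both miR-26a loci give the same mature sequence, the miR-26a probe does not tell them apart.

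Levels are normalized counts, the authors' deposited values, in which barcode counts of each sample are multiplied by 1 factor. The miRNA counts recovered from them were 230284 and 53709 in the oncogenic samples and 189058 and 156092 in the normal samples, so oncogenic replicate 2 was the shallowest. A level of 30 was taken as the lowest that stands above background, since probes for viral miRNAs, which have no target in these cells, reached 27.6 at most. A miRNA entered the test if 2 samples or more reached 30, which 124 did, and all 4 members were among them. The 7 keratinocyte markers, miR-205 and miR-203 among them, summed to 40376 and 34277 in oncogenic and to 41069 and 58005 in normal samples. All 7 were above 30 in every sample, so the labelled cell type has its markers, but the sum is mostly miR-205 and miR-203. Of the 7, 4 were lower and 1 was higher in both oncogenic samples. The lower ones were miR-200a, miR-200b, miR-429 and miR-203. miR-200a stood at 746 and 338 in oncogenic and at 1742 and 1916 in normal samples. miR-200b stood at 1087 and 733 in oncogenic and at 2326 and 2251 in normal samples. The higher one, miR-200c, stood at 729 and 801 in oncogenic and at 719 and 710 in normal samples. For miR-205 and miR-141 the groups overlapped.

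miR-26b was the most abundant of the 4. It stood at 173.8 and 107.4 normalized counts in the oncogenic samples, against 543 and 551 in the normal samples. Both oncogenic values lay far below both normal values, which were close to each other, and the means were 140.6 ± 46.9 in oncogenic and 547 ± 5.92 in normal cells (SD, n = 2 each). The log2 difference (of log2(value + 1), oncogenic minus normal) was -1.99 (SE 0.33), a level 3.98-fold lower in oncogenic cells. By abundance among the 566 miRNA probes of each sample, an order that no scaling between samples can change, miR-26b ranked 58 in both oncogenic samples and 33 in both normal samples. It made up 0.0864% and 0.114% of the recovered miRNA counts in oncogenic samples, against 0.327% and 0.410% in normal samples.

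miR-26a, which shares its seed, was also lower in oncogenic cells, but by less. Its levels were 108 and 77.5 normalized counts in the oncogenic samples, against 175 and 200 in the normal samples. The groups did not overlap, and the means were 92.9 ± 21.8 in oncogenic and 187 ± 17.7 in normal cells (SD, n = 2 each). The log2 difference was -1.02 (SE 0.33), a level 2.03-fold lower in oncogenic cells. By abundance miR-26a ranked 65 and 74 in the oncogenic samples and 61 and 52 in the normal samples, a smaller move than that of miR-26b. The pair together summed to 282 and 185 normalized counts in the oncogenic samples and to 718 and 751 in the normal samples.

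**Figure D1:**
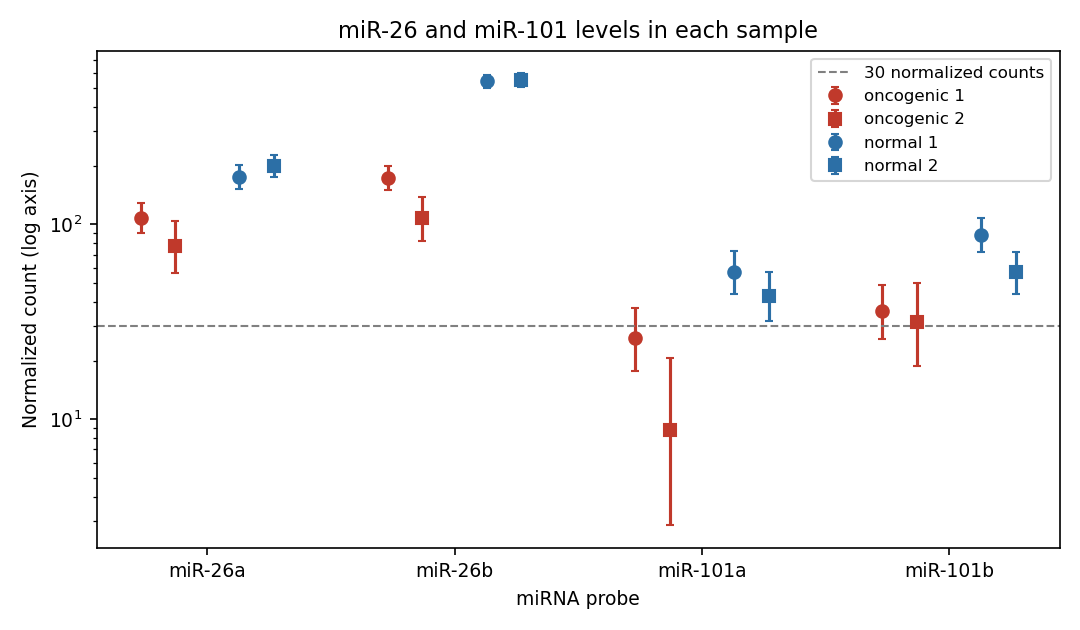
Normalized count (log axis) of each member in each sample, oncogenic in red and normal in blue, replicate 1 as circles and replicate 2 as squares. Bars are exact 95% Poisson intervals of the recovered counts, which cover counting error only, and the dashed line marks 30. For miR-26b the levels were 173.8 and 107.4 in oncogenic against 543 and 551 in normal samples, and miR-101a lies below the line in both oncogenic samples.

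The make-up of the miR-26 family differed between the groups. miR-26b gave 61.6% and 58.1% of the recovered miR-26 counts in the oncogenic samples (199 of 323 and 61 of 105), against 75.6% and 73.4% in the normal samples (618 of 817 and 640 of 872). The exact 95% binomial intervals were 56.1% to 66.9% and 48.1% to 67.7% in oncogenic samples, and 72.5% to 78.6% and 70.3% to 76.3% in normal samples, and those of the oncogenic samples did not reach those of the normal samples. These intervals cover counting error only, since probe efficiency and replicate spread are not in them. The mean share was 59.9 ± 2.49% in oncogenic and 74.5 ± 1.59% in normal cells (SD, n = 2 each). As levels, miR-26b stood at 1.60 and 1.39 times miR-26a in the oncogenic samples and at 3.11 and 2.76 times in the normal samples. The log2 ratio of miR-26b over miR-26a was 0.68 and 0.47 in oncogenic and 1.63 and 1.46 in normal samples, a difference of -0.97 with a pooled SD between replicates of 0.14. A ratio within a sample does not depend on the scaling between samples. Counts of different probes carry unknown efficiencies, so the ratio itself is not a ratio of molecules, whereas its change between groups does not depend on a fixed efficiency. How far each probe also reads the other paralog is not given in the sources used here.

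miR-101a had 26.2 and 8.81 normalized counts in the oncogenic samples, against 57.1 and 43.1 in the normal samples. Both oncogenic values lay under 30, and the lower of them rests on 5 counts (exact 95% Poisson interval 1.62 to 11.7 counts, for counting error only). The level in oncogenic cells is therefore a bound, at least 1.65-fold lower than in normal cells when values under 30 are raised to 30. Left without normal replicate 1 the bound was 1.44, and left without normal replicate 2 it was 1.90. The fitted log2 difference was -1.63 (SE 0.62), the largest error of the 4, and it was -0.89 without oncogenic replicate 2.

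miR-101b had 35.8 and 31.7 normalized counts in the oncogenic samples, against 88.7 and 56.8 in the normal samples. The groups did not overlap, with the oncogenic values just above 30 and the means at 33.8 ± 2.91 in oncogenic and 72.8 ± 22.5 in normal cells (SD, n = 2 each). The log2 difference was -1.05 (SE 0.40). Together the miR-101 pair summed to 62.0 and 40.5 normalized counts in the oncogenic samples and to 145.8 and 99.9 in the normal samples.

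Within the miR-101 family no difference in make-up could be seen at this depth. miR-101b gave 57.7% and 78.3% of the recovered miR-101 counts in the oncogenic samples, on 71 and 23 counts in all, against 60.8% and 56.9% in the normal samples, on 166 and 116 counts in all. The exact 95% intervals of the oncogenic samples, 45.4% to 69.4% and 56.3% to 92.5%, overlapped those of the normal samples, 53.0% to 68.3% and 47.4% to 66.1%. The log2 ratio of miR-101b over miR-101a differed by 0.58 between the groups, with a pooled SD of 0.66, and by -0.074 without oncogenic replicate 2.

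**Figure D2:**
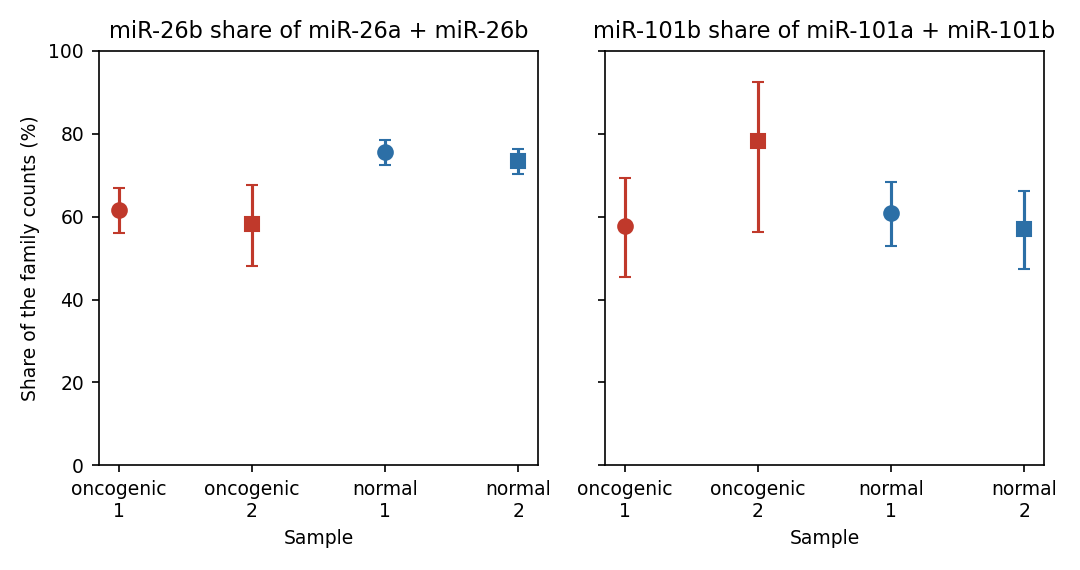
Share of the b paralog in the recovered counts of each family, in percent, per sample, oncogenic in red and normal in blue, with exact 95% binomial intervals for counting error. miR-26b gave 61.6% and 58.1% in oncogenic and 75.6% and 73.4% in normal samples, while the miR-101b shares overlap between the groups.

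All 4 members had a negative difference, as did 58.9% of the 124 tested miRNAs. For all 4, both oncogenic samples were below both normal samples, an order that 48 of the 124 showed (38.7%), and 16 (12.9%) showed the opposite order. The median log2 difference was -1.34 over the 4 members, or -1.04 with miR-101a at its bound, and -0.19 over all tested miRNAs. Counted from the lowest of the 124 differences, miR-26b was in place 8, miR-101a in place 11, miR-101b in place 26 and miR-26a in place 27. The place of miR-101a rests on values under 30 and could be nearer the middle. None of the 4 passed limma with Benjamini-Hochberg adjustment over the 124 miRNAs at 0.05, where 5 passed as lower (4.03%) and 0 as higher. At an unadjusted p under 0.05 limma gave 2 members as lower, of 26 lower and 4 higher among the 124. edgeR gave 1, of 15 lower and 12 higher, and DESeq2 gave 1, of 14 lower and 9 higher. These tests also differ in scaling, since limma used the deposited scale, edgeR TMM factors and DESeq2 factors of its own. With the deposited factors, a setting chosen after seeing the data, edgeR gave 27 lower and 4 higher among the 124. After adjustment edgeR called 0 of the members and DESeq2 called 1, miR-26b, out of 1 and 11 miRNAs called in all. Since the members were named from this contrast, these counts are given for completeness and nothing is read from them. The calls over all miRNAs were 5 lower and 3 higher when each sample was centred on its median or scaled to its 100 most abundant miRNAs. In both settings miR-26b was among the lower ones, which is likewise given only for completeness.

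**Figure D3:**
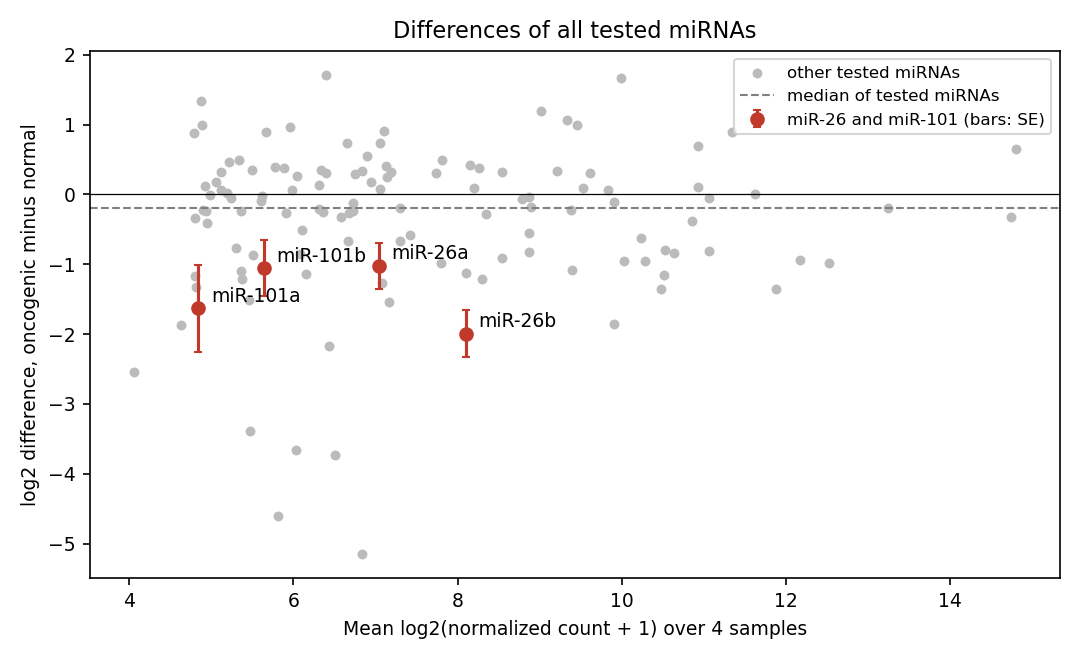
log2 difference, oncogenic minus normal, against the mean log2 level over the 4 samples for the 124 tested miRNAs, with the members in red (bars are the SE of the fit), the others in grey and the median of -0.19 as a dashed line. The 4 members lie below the median, from -1.02 for miR-26a to -1.99 for miR-26b.

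The sign of the 4 differences did not depend on the scaling tried. Over 6 other scalings the log2 difference ranged from -2.40 to -1.46 for miR-26b, from -2.02 to -1.09 for miR-101a, from -1.45 to -0.52 for miR-101b and from -1.43 to -0.48 for miR-26a. In each of them both oncogenic samples stayed below both normal samples for all 4 members, where the share of all tested miRNAs with that order ran from 27.4% to 53.2%. The scalings moved the median of all tested miRNAs as well, to between -0.60 with the mRNA probes and 0.34 with centring on the median. Relative to that median, the difference was -1.80 for miR-26b and -0.83 for miR-26a on the deposited scale. A factor per sample moves a miRNA and the median almost alike, so this relative value is nearly fixed by construction and is no sign of stability.

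**Figure D4:**
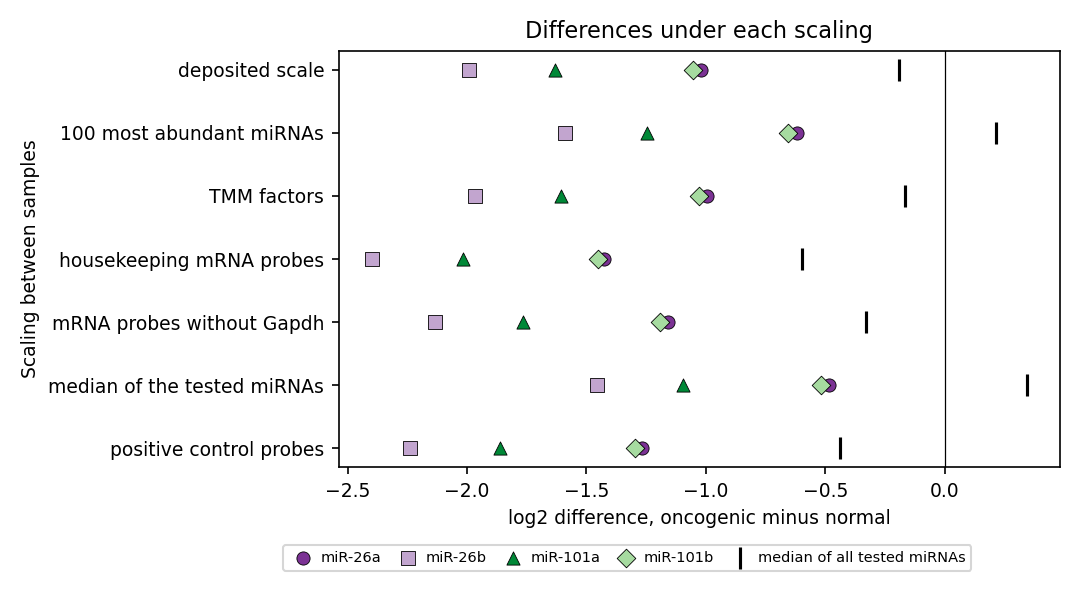
log2 difference, oncogenic minus normal, of each member under the deposited scale and 6 other scalings, with the median of all tested miRNAs as a vertical tick. Every member lies left of 0 under each scaling, nearest to 0 with centring on the median of the tested miRNAs (-0.48 for miR-26a).

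Markers of other cell types were compared between the groups as well. The 3 red blood cell markers summed to 46.3 and 47.6 normalized counts in the oncogenic samples, against 942 and 814 in the normal samples. All 3 were lower in both oncogenic samples and under 30 there, and miR-486 was under 30 in every sample. The 2 endothelial markers, miR-126-3p and miR-126-5p, summed to 11.4 and 17.6 in oncogenic and to 223 and 400 in normal samples. Both were lower, but miR-126-5p was under 30 in every sample. The 2 melanocyte markers, miR-204 and miR-211, summed to 28.0 and 17.6 in oncogenic and to 345 and 171 in normal samples. The groups were apart for 1 of them, miR-204, and miR-211 was under 30 in every sample. Of 6 white blood cell markers 4 were lower and 1 was higher in both oncogenic samples. The sums were 334 and 440 in oncogenic and 621 and 492 in normal samples. The higher one, miR-142-5p, was under 30 in every sample. Of the lower ones, miR-142-3p and miR-223 were under 30 in both oncogenic samples. miR-223 stood only just above 30 in the normal samples (31.6 and 31.0). For miR-155, at 208 and 268 in oncogenic and at 229 and 159 in normal samples, the groups overlapped. Of 5 dermal and stromal markers 3 were lower, with sums of 38.4 and 31.7 in oncogenic and of 105 and 79.2 in normal samples. All 5 were under 30 in both oncogenic samples, and miR-214, miR-143 and miR-145 were under 30 in every sample. The 4 muscle and 3 neural markers were under 30 in all samples. Beside these counts, 38.7% of the 124 tested miRNAs were lower and 12.9% were higher in both oncogenic samples. The sets are unlike, since the lists also hold markers too low to test. Tested were 2 of 3 red blood cell, 1 of 2 endothelial, 1 of 2 melanocyte and 5 of 6 white blood cell markers. Of the 5 dermal and stromal markers 1 was tested, and no muscle or neural marker was. No marker of these lists was at 0 in any sample, and oncogenic replicate 2 was also the shallowest sample. The part of these cell types and of depth in the miR-26 and miR-101 differences was not tested.

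The change in the miR-26 ratio was set beside other pairs of related miRNAs. Of 29 listed pairs 22 had both miRNAs tested, and their ratio differed between the groups by 0.040 to 2.51 in absolute log2 units (median 0.65). For 13 of the 22 pairs (59.1%) the ratios did not overlap between the groups, as for miR-26. By absolute size the miR-26 pair was in place 9 and the miR-101 pair in place 15 of 24. The largest differences were 2.51 for miR-181c over miR-181a, -2.03 for miR-125b-5p over miR-125a-5p and 1.84 for let-7i over let-7g. The first of these rests on low levels, since miR-181a and miR-181c both had 32.3 normalized counts in oncogenic replicate 1 and lay under 30 in oncogenic replicate 2 (17.6 and 21.1). In all, 3 of the 22 pairs had a value under 30, as did the miR-101 pair.

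**Figure D5:**
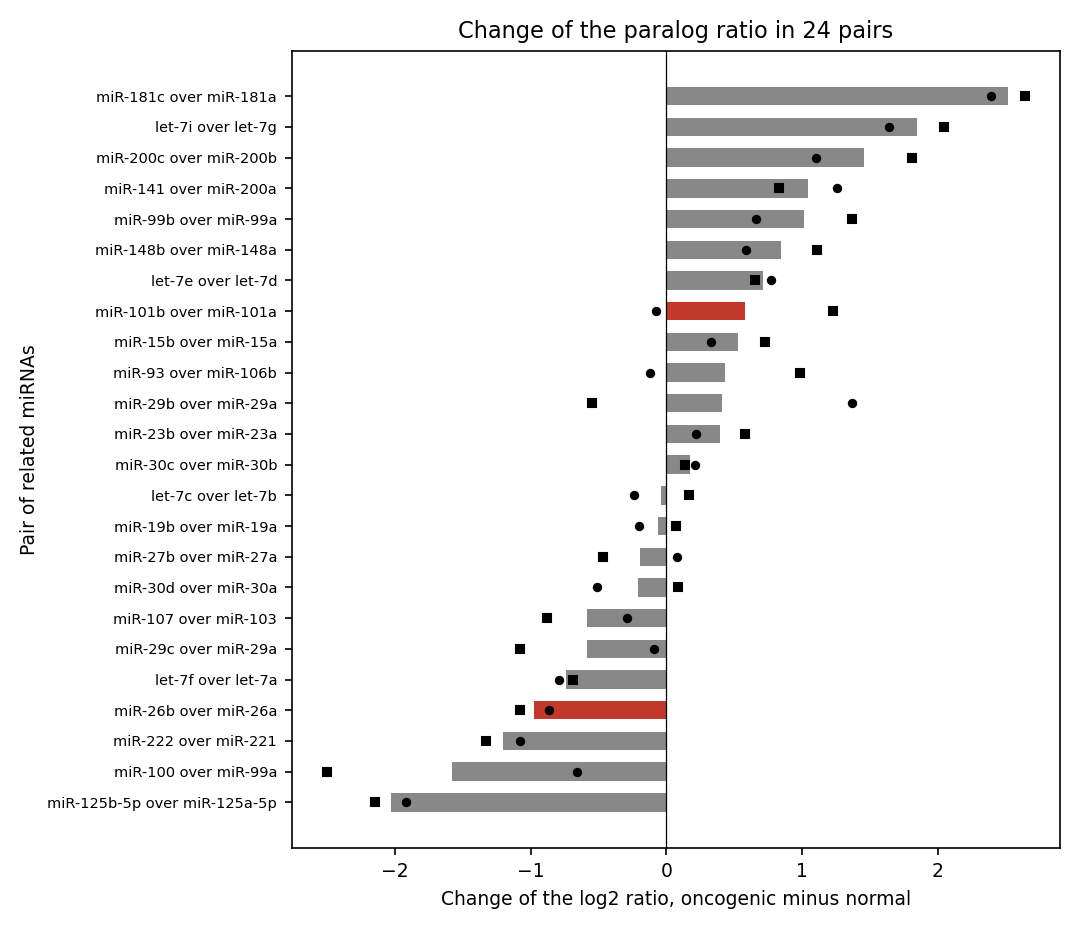
Change of the log2 ratio, oncogenic minus normal, for 24 pairs of related miRNAs, the members' pairs in red. Bars are the difference of the group means, and the black circle and square are oncogenic replicates 1 and 2 relative to the normal mean. miR-26b over miR-26a stands at -0.97 with both oncogenic samples on the same side, and miR-101b over miR-101a at 0.58 with its oncogenic samples on both sides of 0.

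The miRNAs whose levels ran most like those of a member were found by the root-mean-square distance between log2 profiles, each centred over the 4 samples. With so few samples these are a description. For miR-26a the nearest were miR-10a (0.059), miR-151-5p (0.086) and let-7c (0.12). miR-10a had 180.8 and 137 normalized counts in oncogenic samples, against 305 and 318 in normal samples. For miR-26b they were miR-200a (0.18), miR-200b (0.32) and miR-676 (0.34). miR-200a, of the family that keeps epithelial identity by repressing Zeb factors, had 746 and 338 normalized counts in oncogenic samples, against 1742 and 1916 in normal samples. For miR-101a they were miR-29c (0.11), miR-23a (0.16) and miR-193 (0.24), all lowest in oncogenic replicate 2. For miR-101b they were let-7b (0.20), let-7c (0.21) and let-7g (0.21). No member had its own paralog among its 3 nearest. miR-26b was in place 48 for miR-26a and miR-26a in place 18 for miR-26b. miR-101b was in place 30 for miR-101a and miR-101a in place 43 for miR-101b. The profiles were not scaled, so the distance also reflects how far the sizes of 2 differences lie apart. miR-101a, miR-676 and miR-193 were under 30 in both oncogenic samples, so places that involve them are uncertain.

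Besides the members, 11 miRNAs reported to target Ezh2 or EZH2 transcripts were listed, and 7 were tested. None passed limma with Benjamini-Hochberg adjustment in either direction (adjusted p from 0.0998 to 0.841), and neither edgeR nor DESeq2 called any after adjustment. An unadjusted p under 0.05 was reached by 3 lower and 0 higher in limma, by 2 lower and 2 higher in edgeR, and by 1 lower and 1 higher in DESeq2. The scaling between samples differs among these tests as well, with limma on the deposited scale. Of the 7, 5 had negative and 2 positive differences, with a median of -0.94, where 58.9% of all tested miRNAs were negative. For 5 of them the oncogenic samples were both below the normal samples, as for 38.7% of all tested miRNAs. let-7a, let-7b and let-7c are of the same family, so the 7 are not separate observations. miR-25, of the miR-106b cluster, had 475 and 453 normalized counts in oncogenic samples, against 935 and 1028 in normal samples (log2 difference -1.08). miR-30d had 235.9 and 146.2 in oncogenic samples, against 335 and 494 in normal samples (log2 difference -1.13). let-7c and let-7b had log2 differences of -0.98 and -0.94, miR-98 one of -0.58, and let-7a one of 0.11 with overlapping groups. miR-138 ran the other way, at 59.4 and 35.2 normalized counts in oncogenic samples, against 27.2 and 11.2 in normal samples. Both normal values lay under 30, so the size of this difference is uncertain. miR-214, miR-124, miR-137 and miR-217 were too low to test, at no more than 13.98 in any sample.

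Of the 566 panel names, 437 were matched to a RefSeq mature sequence and searched for related seeds. Among them no miRNA outside the family had the miR-26 seed. With 6 of the 7 seed bases in common at the same positions, the search found miR-144 and miR-323-3p for miR-101a and miR-582-5p for miR-101b on the panel. miR-144, shown for its closeness to the miR-101a seed, is a red blood cell miRNA.
miR-144: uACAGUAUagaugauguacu
It had 22.7 and 7.05 normalized counts in oncogenic samples, against 269 and 75.8 in normal samples, and the 4 samples stood in the same order as for miR-101a. miR-323-3p and miR-582-5p were too low to test, at no more than 9.66 and 19.4 in any sample.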

How the data were processed

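Total RNA of 4 samples was measured by nanoString nCounter miRNA assay, which counts colour-coded barcodes, per the labels' protocols. The authors deposited a normalized signal. Their method, background treatment and software were not given in the sources used here. On inspection, 100% of the deposited signal values of miRNA, mRNA and viral probes were whole counts, within 0.1 count, times 1 factor per sample (0.874 and 1.76 for oncogenic, 0.878 and 0.861 for normal samples). Groups follow the condition label. limma 3.58.1 (R 4.3.3) with a mean-variance trend was run on log2(value + 1) over 124 miRNAs, two-sided, and edgeR 4.0.16 and DESeq2 1.42.0 on the recovered counts of the same miRNAs. edgeR with TMM called 1 and DESeq2 11 of the 124. An exact permutation test of 2 against 2 samples cannot go below p = 0.333, so none is given. The members, lists and named miRNAs (members, seed relatives, 3 nearest profiles, listed Ezh2-targeting miRNAs, 3 most changed pairs) were chosen with earlier results of these data known.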

Additional observations from a re-analysis of the deposited data

How the results depend on the processing

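The differences of all 4 members stayed negative under each of 14 alternatives. For some of these the outcome was fixed. Where the groups do not overlap, leaving out 1 sample or raising the pseudocount cannot change the sign. With 2 replicates, leaving out 1 also cannot move a difference beyond the SD between replicates. A block for the replicate number gives the same difference. The differences moved by more than 1 SD between replicates in the following. With centring on the median of the tested miRNAs, they were -0.48 for miR-26a, -1.46 for miR-26b and -0.52 for miR-101b. Scaled to the 100 most abundant miRNAs, they were -0.62, -1.59 and -0.66, and scaled to the mRNA probes -1.43, -2.40 and -1.45, in the same order. A pseudocount of 30 gave -0.77 for miR-101a and -0.67 for miR-101b, since it is close to their levels. Leaving out 1 sample at a time, miR-26a ranged from -1.26 to -0.78, miR-26b from -2.34 to -1.65, miR-101a from -2.37 to -0.89 and miR-101b from -1.37 to -0.74. The miR-26b over miR-26a ratio difference ranged from -1.08 to -0.87. The miR-101b over miR-101a ratio difference was -0.074 without oncogenic replicate 2, the opposite sign, and at most 1.23 (without oncogenic replicate 1).

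The number of miRNAs called, 5 on the deposited scale, was less stable. It was 8 with centring on the median or scaling to the 100 most abundant miRNAs, 3 with positive control probes, 1 with edgeR and TMM, and 11 with DESeq2 (8 lower and 3 higher). The cause was not tested. Leaving out 1 sample at a time gave 1 to 26, where the lone sample of a group is assumed to vary like the other group. It was 1 without normal replicate 2, 3 without normal replicate 1, 10 without oncogenic replicate 2 and 26 without oncogenic replicate 1. With the replicate number as a block it was 30, of which 24 lower and 6 higher. miR-26b and miR-101a were among the lower ones, which is given only for completeness, since the members were named from this contrast. miR-101a was also under 30 normalized counts in both oncogenic samples. Deviations of same-numbered samples from their group means correlated at 0.66 across the 124 miRNAs, but with 2 pairs and labels that give only a number, the samples were not treated as paired. Scaling to mRNA probes without Gapdh and edgeR with the deposited factors, which called 6 and 4, were chosen after seeing the data. Depth limits the miR-101 family most, with 23 and 71 counts in the oncogenic samples.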
